A study of Mus musculus with 4 samples.

Results

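The forkhead (Fox) and Sox transcription factors were described in DPPIV- and DPPIV+ fibro-adipogenic progenitors (FAPs), the stromal progenitors of skeletal muscle. Members were chosen by symbol alone, as every gene written Fox with 1 letter and a number, or Sox with a number only. This gave 63 of the 24421 gene symbols in the count table, of which 44 were Fox genes and 19 were Sox genes. The RNA came from FAPs sorted as PI- CD31- CD45- Sca1+ cells, either DPPIV- or DPPIV+, from the same 2 wild-type mice, so that each mouse gave 1 library of each cell type (n = 2 mice per cell type). Both cell types had been exposed to 3 weeks of CSF1R inhibition, which depletes resident macrophages, and then to 3 days of a regular diet. No library of untreated mice was analysed here, so each difference is one between cell types in recovering muscle. Sorted cells are a mixture, and in bulk RNA fewer cells of a type and less RNA per cell cannot be told apart. The sample labels name the tibialis anterior as the tissue, while the extraction text describes muscle from both hindlimbs.

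Forkhead proteins bind DNA through a winged-helix domain, in which 1 helix lies in the major groove and reads the target sequence. Sox proteins bind through an HMG box that bends the DNA, and members of a subfamily (SoxC, SoxD, SoxE, SoxF) often act in the same tissue. In mesenchyme, FoxO factors respond to insulin and growth factor signalling, FoxC and FoxF factors pattern mesoderm, and Sox9 with the SoxD factors is known for cartilage and tendon attachment.

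The coding stretch of the DNA-binding domain is printed for Foxo1 and for 5 of the 6 members whose call held in every alternative that tested them, because members of 1 family share this stretch and reads from it could in principle be assigned to a relative. The bases were read from the mouse genome GRCm38 with GENCODE M21 gene models, on the strand of the gene. In the Sox genes the stretch is 81 bases of the HMG box and the capitals mark the bases that code its conserved opening motif. Sox9 lies at chr11:112782903-112782983 on the plus strand (exon 1 of 3), Sox12 at chr2:152397495-152397575 on the minus strand (exon 1 of 2), and Sox13 at chr1:133385485-133385565 on the minus strand (exon 11 of 13).
Sox9: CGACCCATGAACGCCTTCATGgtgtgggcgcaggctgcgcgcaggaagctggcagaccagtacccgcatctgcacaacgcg
Sox12: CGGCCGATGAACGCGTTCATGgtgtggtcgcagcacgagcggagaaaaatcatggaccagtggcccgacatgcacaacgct
Sox13: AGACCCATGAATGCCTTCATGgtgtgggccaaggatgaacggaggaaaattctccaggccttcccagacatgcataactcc

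In the Fox genes the stretch is 63 bases and the capitals mark the bases that code the core of the recognition helix. Foxs1 lies at chr2:152932898-152932960 on the minus strand, in its single exon. The stretch is split over exons 1 and 2 in Foxo1 (chr3:52269405-52345083, plus strand) and in Foxo6 (chr4:120269138-120286856, minus strand), and only the exonic bases are printed.
Foxs1: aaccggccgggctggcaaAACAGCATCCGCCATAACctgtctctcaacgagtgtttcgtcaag
Foxo1: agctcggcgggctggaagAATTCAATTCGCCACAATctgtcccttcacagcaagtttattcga
Foxo6: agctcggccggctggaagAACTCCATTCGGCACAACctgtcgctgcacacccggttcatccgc

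Between Sox genes these stretches were identical at 54 (Sox9 and Sox13) to 58 (Sox9 and Sox12) of 81 bases. Foxo1 and Foxo6 were identical at 50 of 63 bases (79.4%), and Foxs1 shared 35 with Foxo1 and 39 with Foxo6. None of Foxs1, Foxo6, Sox7, Sox9, Sox12 and Sox13 shared exonic bases with another annotated gene. On the opposite strand, Foxo1 shared 674 with Gm20402, Sox4 shared 2616 with Gm26735 and Sox5 shared 1330 with Sox5os1. On the same strand, Foxp1 shared 300 with Gm20696 and 135 with Gm49348.

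The 4 libraries held 18240110 to 20879405 counted reads, so that 3 reads, used as the limit of detection, corresponded to 0.143 to 0.166 CPM. CPM are counts per 1e+06 reads of the library total after TMM scaling between libraries. Only the filter below used CPM on the unscaled totals. Dpp4, which encodes the sorted surface protein, had 89.6 CPM in DPPIV- FAPs of mouse 1 and 39.6 in those of mouse 2, and 726.5 and 573.7 CPM in the DPPIV+ FAPs. All 10 FAP markers passed the filter on low counts (2 CPM or more in 2 or more libraries), 4 were higher and 5 lower in DPPIV+ FAPs, and their summed level was 100006 to 115048 CPM. Gsn, Col1a1 and Dcn were lower (log2 fold change -0.25, -0.40 and -0.28) and Pi16, a marker of DPPIV+ stromal cells, was higher (2.66).

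Fox and Sox transcripts together took 0.0724% to 0.0789% of the reads of each library. Of the 63 members, 25 passed the filter (18 Fox and 7 Sox), 19 had reads but stayed under it (10 Fox and 9 Sox), and 19 had no read in any library (16 Fox and 3 Sox). Among the 25, 6 were higher and 9 were lower in DPPIV+ FAPs by edgeR's quasi-likelihood test with mouse as a block and Benjamini-Hochberg adjustment over the 11588 genes tested (adjusted p under 0.05). The same test called 33.0% of all genes tested, 15.9% higher and 17.2% lower. The higher members were Foxo6, Sox13, Sox5, Foxo1, Foxk1 and Foxp1, and the lower ones were Foxs1, Sox7, Sox12, Sox9, Foxc1, Foxo3, Sox4, Foxn2 and Foxp4. All 15 had the same direction in both mice, as did 3803 of the 3826 genes called among all genes tested. The median log2 fold change of the 25 was 0.02, with 0.05 for Fox and -0.25 for Sox genes, and that of all genes tested was -0.0019. In 20 of the 25, both DPPIV+ libraries lay outside the range of the DPPIV- libraries (9 above and 11 below), which was the case for 56.3% of all genes tested.

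With 2 mice, the test took the spread of each gene from the trend over all genes, so a small adjusted p rests on that shared spread. Without the mouse block, 3 members were higher and 5 lower. DESeq2's Wald test, which called 16.6% of all genes, called 3 higher (Foxo1, Foxo6 and Sox13) and 4 lower (Foxs1, Sox7, Sox9 and Sox12).

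**Figure D1:**
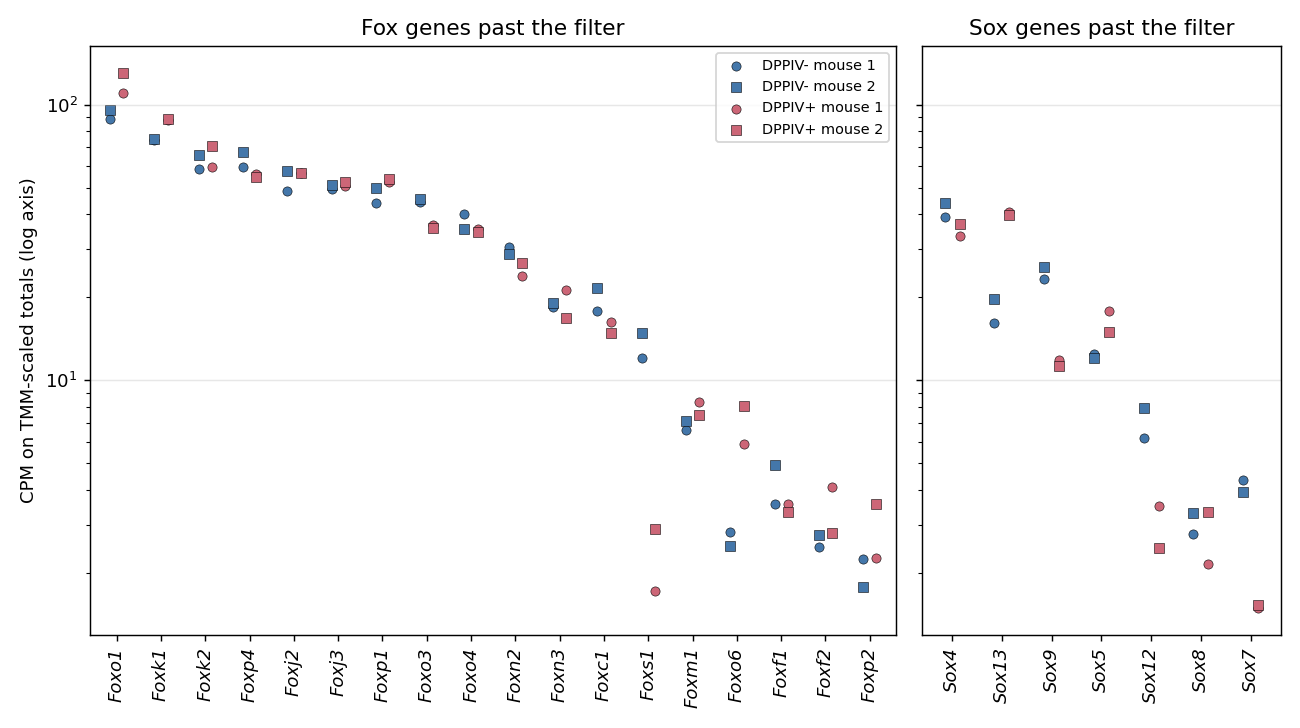
Level of the 25 Fox and Sox genes that passed the filter, in CPM on TMM-scaled totals on a log axis, with 1 point per library (circles mouse 1, squares mouse 2, blue DPPIV-, red DPPIV+). The levels run from 1.50 CPM in Sox7 to 130.4 CPM in Foxo1, and Foxs1, Sox7, Sox9, Sox12, Sox13 and Foxo6 show the widest gaps between blue and red points.

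Foxs1, a single-exon forkhead gene known from pericytes and vascular smooth muscle, had the steepest difference among the 25 members past the filter. In DPPIV- FAPs 252 reads were counted in mouse 1 and 291 in mouse 2, while DPPIV+ FAPs gave 31 and 53, or 12.0 and 14.8 against 1.72 and 2.90 CPM. Every DPPIV- value was thus several times every DPPIV+ value. Its mean fell from 13.4 ± 2.00 to 2.31 ± 0.837 CPM (SD, n = 2 mice), a 5.81-fold lower level, with a log2 fold change of -2.55 (SE 0.20, adjusted p = 8.49e-37) and -2.80 in mouse 1 and -2.35 in mouse 2. Per kilobase of exon, Foxs1 ranked 5 of the 25 members in DPPIV- FAPs (10.2 RPKM) and 16 in DPPIV+ FAPs (1.76 RPKM). The gene lies on chromosome 2 at 152931898-152933208 (ENSMUSG00000074676.2).

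Markers of mural cells (pericytes and smooth muscle) were lower in the same direction. Of 10, 9 passed the filter, 8 were lower, none was higher and Myh11 was not called, with a median log2 fold change of -1.27. Their summed level was 219 and 224 CPM in the DPPIV- libraries and 94.8 and 115 CPM in the DPPIV+ libraries. Examples were Cspg4 (-1.27), Des (-0.22), Ndufa4l2 (-1.84) and Abcc9 (-2.35). Kcnj8, among the 8, passed only through its DPPIV- libraries. Foxs1 fell by 2.55 on the same log2 scale, and the part of mural cells in its difference was not tested.

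**Figure D2:**
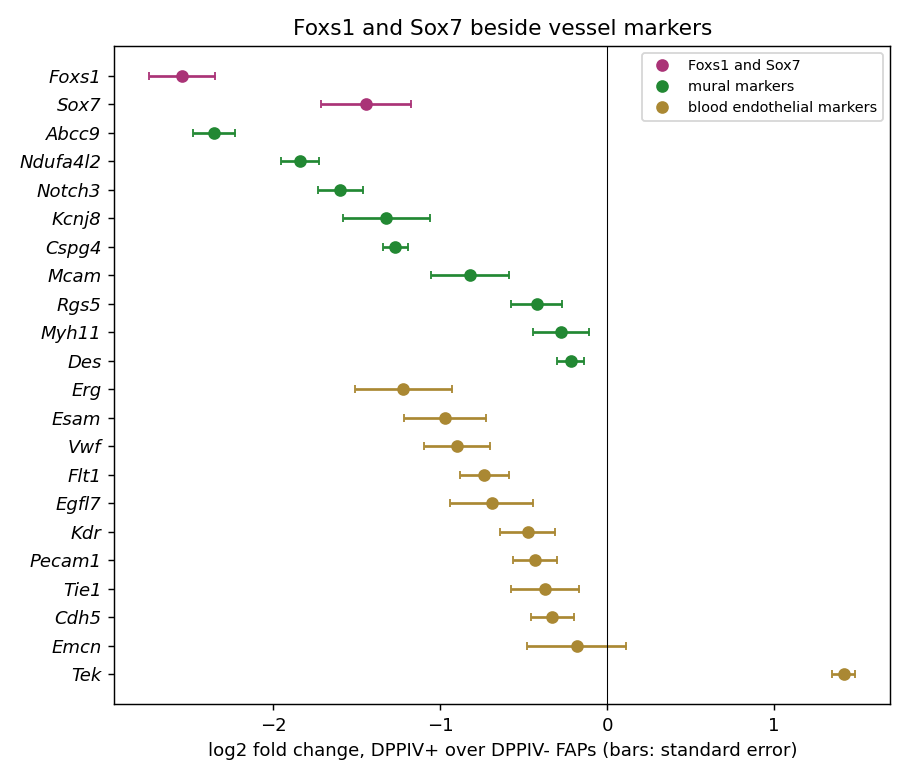
Log2 fold change (DPPIV+ over DPPIV- FAPs) with its standard error, for Foxs1 and Sox7 and for the mural and blood endothelial markers that passed the filter. Foxs1 (-2.55) lies at the low end with Abcc9 (-2.35), Sox7 (-1.44) lies lower than the endothelial markers, and Tek (1.42) is the single marker on the right.

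The SoxF factors Sox7, Sox17 and Sox18 are best known from blood and lymphatic endothelium. Sox7 was read 91 times (mouse 1) and 77 times (mouse 2) in DPPIV- FAPs, and 27 and 28 times in DPPIV+ FAPs, or 4.34 and 3.93 against 1.50 and 1.53 CPM. The groups did not overlap, and the log2 fold change was -1.44 (SE 0.27, adjusted p = 5.905e-07). Sox7 passed the filter only through its DPPIV- libraries, so that a difference in this direction was needed for it to be tested at all. Sox18 (61 and 37 reads against 28 and 24) and Sox17 (37 and 19 against 23 and 22) stayed under the filter. In a fit without the filter they were not called (log2 fold change -0.72 and -0.11, adjusted p = 0.113 and 0.899). The summed SoxF level was 9.01 and 6.79 CPM in DPPIV- FAPs and 4.32 and 4.05 CPM in DPPIV+ FAPs.

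CD31+ cells had been removed by the sort, yet blood endothelial markers were read at low levels. Of 12, 11 passed the filter, 8 were lower, 1 (Tek) was higher and 2 were not called. Tek, an angiopoietin receptor, dominated their sum with 168 ± 26.6 CPM in DPPIV- and 446 ± 27.7 CPM in DPPIV+ FAPs. Without Tek the sum was 113 and 60.2 CPM in the DPPIV- libraries of mouse 1 and mouse 2, and 60.4 and 54.8 CPM in the DPPIV+ libraries. Among the lower ones were Cdh5 (-0.33), Pecam1 (-0.43) and Flt1 (-0.74), while Erg passed only through its DPPIV- libraries. In mouse 1 and mouse 2 the log2 ratios were -0.33 and -0.32 for Cdh5, -0.80 and 0 for Pecam1, and -1.22 and -0.17 for Flt1. Kdr, also among the lower ones, had -0.95 in mouse 1 and 0.10 in mouse 2. The log2 ratio of Sox7 was -1.53 in mouse 1 and -1.35 in mouse 2, and the part of endothelial cells in its difference was not tested. Of 6 lymphatic markers 2 passed the filter, neither was called, and Ccl21a had no reads.

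Sox9 and Sox8 are SoxE factors, of which Sox9 is required for cartilage formation and is present in tendon and ligament progenitors. Sox9 had 23.2 and 25.7 CPM in the DPPIV- libraries and 11.9 and 11.3 CPM in the DPPIV+ libraries, so that the 2 mice gave nearly the same values within each cell type. Its mean fell from 24.4 ± 1.72 to 11.6 ± 0.412 CPM, with a log2 fold change of -1.08 (SE 0.12, adjusted p = 2.898e-19). Sox8 was low, at 2.16 to 3.34 CPM, and its libraries overlapped (log2 fold change -0.16, 95% confidence interval -0.65 to 0.34). An antisense gene that overlaps Sox8, 2810468N07Rik, was counted separately. Sox10, the SoxE factor of Schwann cells, had 30 and 7 reads in DPPIV- and 8 and 15 in DPPIV+ FAPs, with no common direction in the 2 mice. Of 11 glial markers 9 passed the filter, of which 2 were higher (Mbp 0.63, Erbb3 2.68) and 4 lower (Scn7a -0.41, Cdh19 -1.90, S100b and Ngfr). Erbb3 passed the filter only through its DPPIV+ libraries and Ngfr only through its DPPIV- libraries, which fixed their directions.

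Genes known as direct targets of Sox9 in cartilage did not share 1 direction. Of 16 listed, 14 were in the count table, 7 passed the filter, 4 were higher and 3 were lower in DPPIV+ FAPs, with a median log2 fold change of 1.21. Chad (2.69) and Col11a1 (1.21), which encode a cartilage matrix protein and a fibrillar collagen chain, were higher. Comp (-0.56) and Col27a1 (-1.31) were lower, as was Col9a2 with 49 and 52 reads against 2 and 2, which passed the filter only through its DPPIV- libraries and so could be called in that direction alone. Col2a1 and Acan, the defining genes of cartilage, stayed under the filter, and Matn1 had no reads. Col2a1 had 6 and 11 reads in DPPIV- and 34 and 41 in DPPIV+ FAPs. Acan had 8 and 13 reads in DPPIV- and 3 and 16 in DPPIV+ FAPs, with no common direction in the 2 mice. Of 7 tenocyte markers, all of which passed, 5 were higher (Fmod 2.26, Tnmd 1.27) and 2 lower (Egr1 -0.37, Thbs4 -0.20). The log2 ratio of Thbs4 was -0.47 in mouse 1 and 0.08 in mouse 2, so the mice differed in direction. Scx, among the higher ones, passed only through its DPPIV+ libraries, and the part of such cells in the Sox9 and Sox13 values was not tested.

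The SoxD factors Sox5, Sox6 and Sox13 lack a transactivation domain of their own and act with partners. Sox13 was read 338 and 385 times in DPPIV- FAPs, and 735 and 728 times in DPPIV+ FAPs, or 16.1 and 19.6 against 40.7 and 39.9 CPM. Each DPPIV+ library held at least as much as the DPPIV- libraries together. The mean rose from 17.9 ± 2.49 to 40.3 ± 0.621 CPM, a 2.25-fold difference, with a log2 fold change of 1.18 (SE 0.09, adjusted p = 1.565e-35). Per kilobase of exon, Sox13 ranked 12 of 25 in DPPIV- and 7 in DPPIV+ FAPs.

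Sox5 had 12.4 and 12.0 CPM in DPPIV- and 17.9 and 14.9 CPM in DPPIV+ FAPs, with no overlap (a change of 0.42 in log2, SE 0.13, adjusted p = 0.0041). That call was lost without the mouse block (adjusted p = 0.0744) and with DESeq2 (adjusted p = 0.274). Sox6 was under the filter with 10 and 4 reads in DPPIV- and 20 and 35 in DPPIV+ FAPs. In the fit without the filter it was higher (log2 fold change 2.10, SE 0.57, adjusted p = 0.00134). The summed SoxD level was 29.0 and 31.9 CPM in DPPIV- FAPs and 59.8 and 56.7 CPM in DPPIV+ FAPs.

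SoxC factors (Sox4, Sox11 and Sox12) act in progenitor cells of many tissues. Sox12 had 130 and 155 reads in DPPIV- and 63 and 45 in DPPIV+ FAPs, or 6.20 and 7.91 against 3.49 and 2.46 CPM. Its log2 fold change was -1.24 (SE 0.22, adjusted p = 1.008e-07), with -0.83 in mouse 1 and -1.68 in mouse 2, a spread of sizes within 1 direction. Sox4 was more abundant and changed little, from 39.2 and 44.0 to 33.3 and 36.7 CPM (log2 fold change -0.25, SE 0.08, adjusted p = 0.008), a call that was lost without the mouse block (adjusted p = 0.145) and with DESeq2 (adjusted p = 0.388). Sox11 had 21 and 8 reads in DPPIV- and 32 and 18 in DPPIV+ FAPs and was not called without the filter (0.99, adjusted p = 0.144). Within the subfamily, Sox12 was lower under each of the 9 alternative tests, whereas the few Sox11 reads were more numerous in DPPIV+ FAPs of each mouse.

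**Figure D3:**
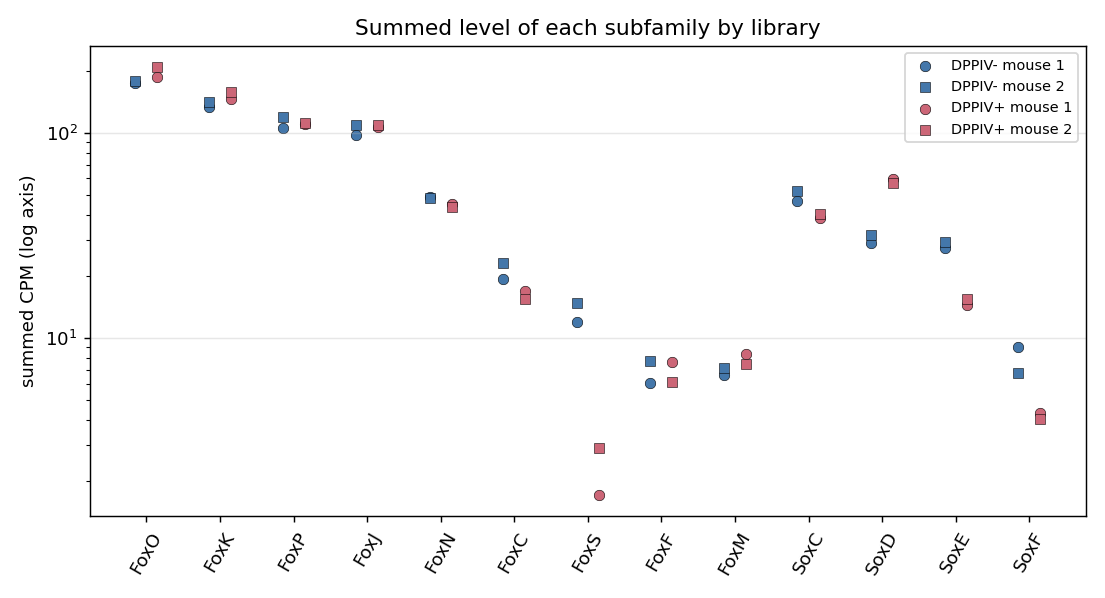
Summed CPM of each Fox and Sox subfamily with at least 1 member past the filter, with 1 point per library on a log axis (circles mouse 1, squares mouse 2, blue DPPIV-, red DPPIV+). SoxD sums lie higher and SoxE, SoxF and FoxS sums lie lower in DPPIV+ FAPs, while FoxF, FoxJ and FoxP points overlap.

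FoxO factors act on metabolism, stress resistance and the cell cycle, and Foxo1, Foxo3 and Foxo4 are held in the cytoplasm when Akt phosphorylates them. All 4 FoxO genes passed the filter and they did not move together. Foxo1 had 88.5 and 95.7 CPM in DPPIV- and 110.3 and 130.4 CPM in DPPIV+ FAPs, and it was the member with the most reads per kilobase of exon in DPPIV+ FAPs (13.9 RPKM, against 10.6 RPKM and rank 4 in DPPIV- FAPs). It rose by 0.38 in log2 (SE 0.07, adjusted p = 5.452e-08). Foxo6, best known from brain, had 59 and 49 reads in DPPIV- and 106 and 148 in DPPIV+ FAPs, or 2.81 and 2.50 against 5.88 and 8.10 CPM. This was a log2 fold change of 1.38 (SE 0.22, adjusted p = 5.216e-09), with 1.06 in mouse 1 and 1.69 in mouse 2.

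Foxo3 went the other way, with 44.2 and 45.3 CPM in DPPIV- and 36.5 and 35.6 CPM in DPPIV+ FAPs (a change of -0.31 in log2, SE 0.08, adjusted p = 4.065e-04), a call that was lost with DESeq2 (adjusted p = 0.178). For Foxo4, at 34.6 to 40.2 CPM, the interval of the log2 fold change was -0.27 to 0.05. The summed FoxO level was 175.8 and 178.9 CPM in DPPIV- and 188.0 and 208.8 CPM in DPPIV+ FAPs, of which Foxo1 was the largest share in every library.

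Upstream of FoxO, all 14 listed components of insulin and PI3K-Akt signalling passed the filter, 2 were higher, 6 lower and 6 not called, with a median log2 fold change of -0.15. The lower ones included Pik3r1, a PI3K regulatory subunit (-0.31), Sgk1, a kinase that phosphorylates FoxO (-0.56), and Irs2, an insulin receptor substrate (-0.17). Igf1r (0.37) and Pdpk1 (0.26) were higher. Of 29 listed FoxO target genes 24 passed, 7 were higher, 5 lower and 12 not called, with a median of 0.06. Irs2, which was lower, and Insr, which was not called, stand in both lists and are counted in each. Klf6 (0.18) and Cdkn1a, a cell cycle inhibitor (0.23), were higher, and Txnip (-0.23) and Gabarapl1 (-0.19) were lower. Igfbp1, a liver target, had no reads.

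FoxK factors repress autophagy and promote glycolysis. Foxk1 had 74.6 and 75.3 CPM in DPPIV- and 87.8 and 88.3 CPM in DPPIV+ FAPs, with the mice of each cell type within 1 CPM of each other (log2 fold change 0.23, SE 0.07, adjusted p = 0.00187). That call was lost without the mouse block (adjusted p = 0.0612) and with DESeq2 (adjusted p = 0.226). Foxk2 overlapped between cell types (interval -0.07 to 0.20). FoxP factors are largely repressors. Foxp1 was higher by 0.18 (SE 0.07, adjusted p = 0.0457) and Foxp4 lower by a log2 fold change of -0.19 (SE 0.07, adjusted p = 0.0184). Foxp4 had 59.1 and 67.4 CPM in DPPIV- and 55.8 and 54.8 CPM in DPPIV+ FAPs, and Foxp1 had 43.9 and 49.8 against 52.2 and 53.7 CPM. The Foxp1 call was lost under each of the 9 alternative tests, and the Foxp4 call under 4 of them (DESeq2, no mouse block, no filter and the test against 1.5-fold). Foxp2 was the lowest of the 25 per kilobase of exon and its interval was wide (-0.01 to 1.04).

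**Figure D4:**
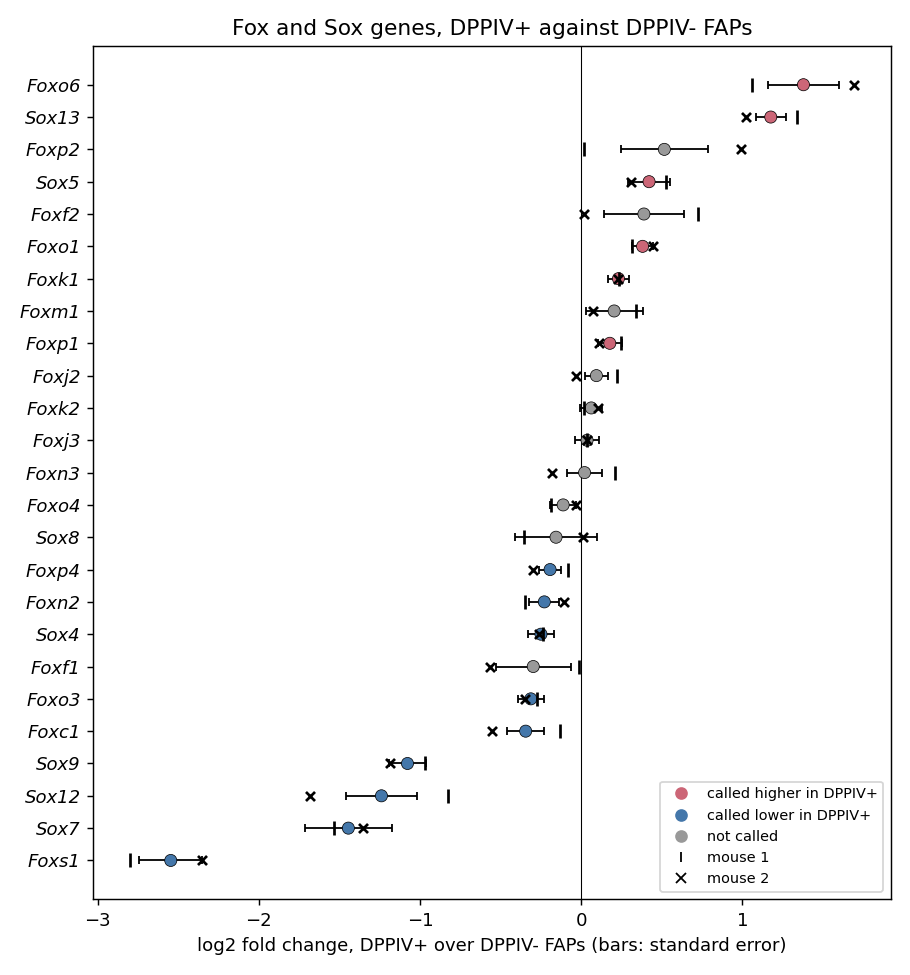
Log2 fold change (DPPIV+ over DPPIV- FAPs) of the 25 members past the filter, with the standard error as bars, the ratio of mouse 1 as a vertical tick and that of mouse 2 as a cross. Red points were called higher (6), blue points lower (9) and grey points were not called (10), from Foxs1 at -2.55 to Foxo6 at 1.38.

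FoxC and FoxF factors pattern mesoderm and the mesenchyme around vessels and gut. Foxc1 had 17.9 and 21.7 CPM in DPPIV- and 16.3 and 14.8 CPM in DPPIV+ FAPs (a change of -0.34 in log2, SE 0.11, adjusted p = 0.0104), with -0.13 in mouse 1 and -0.55 in mouse 2. The call was lost with DESeq2 and without the mouse block. Its relative Foxc2 stayed under the filter with 34 and 32 reads in DPPIV- and 12 and 13 in DPPIV+ FAPs, and without the filter it was lower (-1.22, SE 0.46, adjusted p = 0.0352). Foxf1 and Foxf2 were low and not called, with intervals of -0.75 to 0.16 and -0.10 to 0.88.

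On chromosome 13, Foxf2 and Foxc1 are 175.2 kb apart, and Foxq1, 64.8 kb from Foxf2, had no reads. On chromosome 8, Foxf1 and Foxc2 are 28.0 kb apart, and Foxl1, 9.0 kb from Foxc2, had none either. On chromosome 13 the log2 fold change was -0.34 for Foxc1 and 0.39 for Foxf2, which was not called. On chromosome 8 it was -1.22 for Foxc2, in the fit without the filter, and -0.30 for Foxf1, which was not called.

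The remaining forkhead genes past the filter are broadly expressed. Foxn2 had 30.5 and 28.8 CPM in DPPIV- and 23.9 and 26.7 CPM in DPPIV+ FAPs (a change of -0.23 in log2, SE 0.09, adjusted p = 0.0414), a call that was lost under 6 of 9 alternatives. Foxj2, Foxj3 and Foxn3 overlapped between cell types and had intervals of -0.04 to 0.23, -0.11 to 0.18 and -0.19 to 0.24, so that differences beyond about these sizes were not seen. Foxm1, which drives genes of mitosis, had 6.58 to 8.32 CPM and an interval of -0.14 to 0.55.

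Partners of Fox and Sox proteins were read in both cell types. All 20 listed cofactors passed, 3 were higher, 6 lower and 11 not called, with a median log2 fold change of -0.02. Hdac7, a class II histone deacetylase, rose from 141 and 140 to 315 and 278 CPM (log2 fold change 1.07, SE 0.07, adjusted p = 6.956e-54). Tle3, a Groucho-type corepressor, was higher by 0.21, and Smad3 (-0.17) and Cbfb (-0.21) were lower. The Cbfb partners Runx1 (-1.29) and Runx2 (-1.95), singled out here after their values were seen, fell more steeply.

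**Figure D5:**
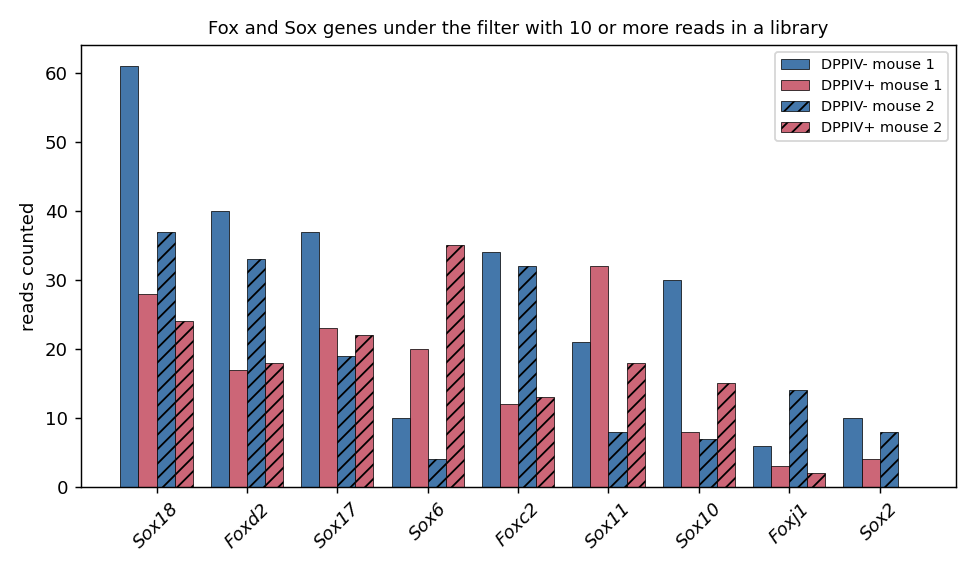
Reads counted in each library for Fox and Sox genes under the filter that had 10 or more reads in a library (plain bars mouse 1, hatched bars mouse 2, blue DPPIV-, red DPPIV+). Foxc2 and Foxd2 had more reads in both DPPIV- libraries, Sox6 had more in both DPPIV+ libraries, and Sox10 and Sox17 differed between mice.

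Among the other members under the filter, Foxd2 had 40 and 33 reads in DPPIV- and 17 and 18 in DPPIV+ FAPs and was not called (-0.88, adjusted p = 0.113). Foxj1, the factor of motile cilia, had 2 to 14 reads, Sox2 had 0 to 10, Foxd1 had 0 to 9, Foxd3 had 0 to 5 and Sox30 had 1 to 5. Foxa2, Foxa3, Foxl2, Foxp3, Foxr2, Sox15 and Sox21 had at most 2 reads in a library. Foxp3, the regulatory T cell factor, shares exonic bases with Ccdc22 and Ppp1r3f, which were both counted, and its own reads stayed under the limit of 3. For these genes and for the 19 without a read, a level under 0.143 to 0.166 CPM was not detectable at this depth.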

How the data were processed

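Bulk RNA was sequenced as paired-end reads from 4 libraries, DPPIV- and DPPIV+ FAPs of 2 mice. The authors demultiplexed the reads with bcl2fastq, aligned them to mm10 with STAR and deposited unnormalized read counts for each gene symbol. The annotation release and the strand setting of the counting are not given in the sources used here, and labels and methods name different library kits. All 4 count columns were used.

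Genes reaching 2 CPM in 2 or more libraries were kept, scaled by TMM, and compared with edgeR 4.0.16 (R 4.3.3) in a quasi-likelihood fit and two-sided F test with mouse and cell type, with Benjamini-Hochberg adjustment and a threshold of 0.05. The same animal gave both cell types, so mouse was the block. Across genes (no independent replicates), the change from mouse 1 to mouse 2 correlated at 0.415 between both cell types. Prior degrees of freedom came out infinite, so the p-values use the spread of the trend over all genes, after the mouse block. A standard error is the size of the log2 fold change over the root of F. RPKM used the union of exons of GENCODE M21. Tests were first run on simulated data.

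Alternatives were DESeq2 1.42.0, no block, RLE and upper-quartile scaling, no filter, 2 CPM in at least 3 libraries, a likelihood ratio test, robust moderation, a test against 1.5-fold, and each mouse left out. The limit of 3 reads covers counting error only, and reads carried no molecular identifiers. Members were named by symbol. Of each list (FoxO regulators, FoxO targets, Sox9 cartilage targets, cofactors, and cell type markers), up to 4 called genes with the most reads were named, and any singled out. Members, lists and named-gene rule were chosen with earlier results of these data known. Protein and promoter sequences are not shown. Some listed genes and sequences are not reported here. Flow cytometry, histology and digital PCR were not analysed here.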

Additional observations from a re-analysis of the deposited data

How the results depend on the processing

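Of the 15 Fox and Sox calls, 6 were kept in all alternatives in which the gene was tested (Foxs1, Foxo6, Sox7, Sox9, Sox12 and Sox13). Sox7 was not tested when 2 CPM were asked in at least 3 libraries. Foxo1 lost its call only in the test against 1.5-fold, Foxo3 in that test and with DESeq2, and none of the 10 genes not called became called. In place of 4 Fox genes higher, 5 Fox genes lower and 2 Sox genes higher, DESeq2 gave 2, 1 and 1, the unpaired fit without the mouse block 2, 2 and 1, and the test against 1.5-fold 1, 1 and 1. The block therefore bears on the small changes, and 8 of 15 calls were kept without it. Under upper-quartile scaling Foxj3 (log2 fold change -0.006) and Foxn3 (-0.0217) changed sign, and the cause was not tested. That scaling moved the median of all genes to -0.045, and it called 1489 genes higher and 2295 lower, against 1837 and 1989. DESeq2 called 923 and 995 of all genes, the fit without the block 1001 and 1119, and the test against 1.5-fold 436 and 656. With 1 mouse left out, 1 library per cell type remained, so fold changes but no tests were computed. Each of the 15 kept its direction in either mouse, and 3803 of the 3826 genes called among all genes had the same direction in both mice. Foxj3 went from 0.0369 to 0.0373 and 0.0377. Depth limits the members under the filter, where 2 CPM are 36.5 to 41.8 reads.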

Other observations

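Markers of other cell types were read beside the lists above. Of 10 immune markers 7 passed the filter, and 4 were lower in DPPIV+ FAPs (Lyz2 -0.40, Csf1r -0.32, C1qa -0.33 and Adgre1 -0.53, log2 fold changes by edgeR's quasi-likelihood test) and none was higher. Most of the difference lay in mouse 1. The log2 ratios in mouse 1 and mouse 2 were -0.75 and -0.04 for Lyz2 and -0.59 and -4e-04 for Csf1r. For C1qa they were -0.58 and -0.05, and for Adgre1 -0.68 and -0.37. The summed level of the 10 immune markers was 336 and 201 CPM in the DPPIV- libraries of mouse 1 and mouse 2, and 212 and 193 CPM in the DPPIV+ libraries. Of 9 markers of satellite cells and myofibres 4 passed and none was called. Of 6 perineurial markers 2 passed, and Cldn1, a tight junction protein, was lower (-1.68), having passed the filter only through its DPPIV- libraries.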
